A study of Mus musculus with 10 samples.

Results

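A set of 10 genes of lipoprotein assembly, lipid export and cholesterol storage was followed in microglia, the brain's own macrophages. The genes were chosen by name from the gene identifiers of the count tables, and all 10 were found among the 49315 genes of each library. They are the apolipoproteins Apoe, Apoc1, Apoc2 and Apoc4, the lipoprotein lipase gene Lpl, the phospholipid transfer protein gene Pltp, the exporters Abca1 and Abcg1, the esterifying enzyme gene Soat1 and the oxysterol receptor gene Nr1h3. RNA was sequenced from brain cells of wild-type C57BL/6 mice, labelled as microglia and sorted into a CD11c+ and a CD11c- subset. CD11c is the integrin chain encoded by Itgax. At postnatal day 5 (P5) there were 3 CD11c+ and 3 CD11c- libraries, and at 9 months there were 2 CD11c+ and 2 CD11c- libraries. The mice carried no transgene or treatment that the labels name, and the labels do not say whether libraries came from single or pooled animals, so that the p-values speak of the scatter among these libraries, part of which may be technical. Only for the 9-month libraries do the labels name a SMART-Seq v4 amplification kit. Age and library kit cannot be told apart, and levels at the 2 ages are therefore set side by side without a test.

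Brain lipoproteins are built around apolipoprotein E, which astrocytes and microglia secrete. Cholesterol reaches these particles through the exporters ABCA1, which loads lipid-poor apolipoproteins, and ABCG1, which loads particles that already carry lipid. Oxysterols switch on the liver X receptors, of which LXR alpha is encoded by Nr1h3, and their known targets include Apoe, Abca1, Abcg1, Pltp, Lpl and the small apolipoprotein genes beside Apoe. Cholesterol that is not exported is esterified by SOAT1 and kept in lipid droplets. In microglia these genes are best known from states reached during myelin clearance and beside amyloid plaques.

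The libraries held between 11892082 and 25483573 counts, except P5 CD11c+ replicate 2 with 2619610. That library stood apart from the other 2 of its group, and results at P5 are given with and without it. The 20 homeostatic microglial genes were detected in all groups. They summed to 1.5% to 2.221% of counts in P5 CD11c+, 1.938% to 3.483% in P5 CD11c-, 6.431% to 7.051% in 9-month CD11c+ and 1.852% to 2.098% in 9-month CD11c- libraries. Other cell types left RNA in some groups. Markers of border-associated macrophages (16 genes), the macrophages of the meninges and perivascular spaces, took 1.704% to 2.152% of counts in P5 CD11c+ against 0.161% to 0.3087% in P5 CD11c- libraries. At 9 months they took 0.2169% to 0.2279% in CD11c+ and 0.05827% to 0.06751% in CD11c-. The 14 neutrophil genes took 12.98% to 17.86% of counts in the 9-month CD11c- libraries and at most 0.3254% elsewhere, and the 10 monocyte genes 1.328% to 1.556% there and at most 0.1139% elsewhere. The 13 mitochondrially encoded genes took 7.145% to 27.97% in P5 CD11c- and 0.7706% to 2.79% in P5 CD11c+ libraries. In P5 CD11c+ replicate 2 the summed markers of neurons reached 151.5 CPM (counts per 1000000 counts of the library), against 7.443 and 8.66 CPM in the other 2 libraries of its group. Astrocyte markers reached 155.4 against 25.75 and 30.79 CPM, vascular markers 149.6 against 38.8 and 40.63 CPM, and choroid plexus markers 85.89 against 2.042 and 1.764 CPM. At 9 months astrocyte markers were higher still in CD11c+, at 196.4 to 206.7 CPM, and choroid plexus markers in CD11c-, at 183.6 to 204 CPM. Outside the P5 CD11c+ group, neuron and vascular markers reached at most 24.72 and 71.46 CPM. The parts these differences have in the results were not tested.

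**Figure D1:**
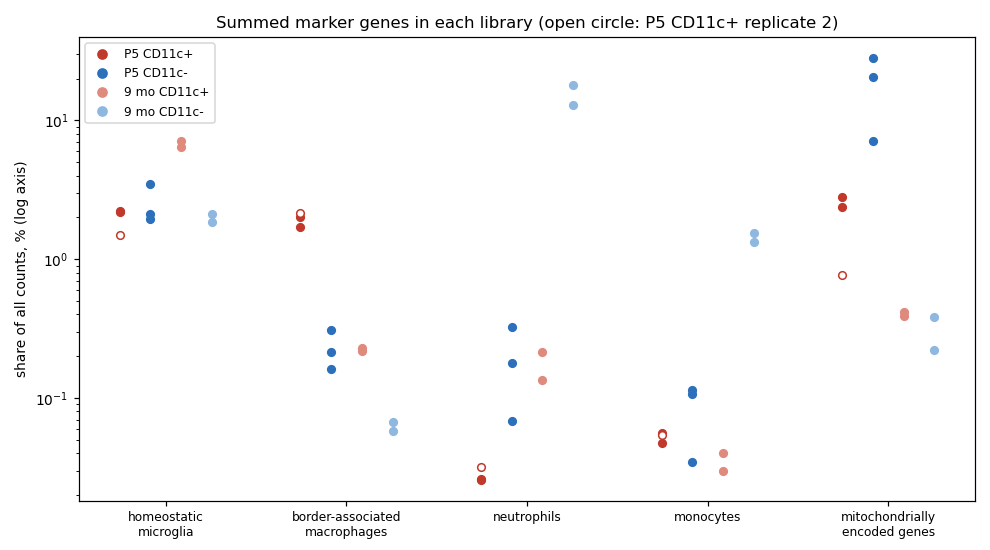
Share of all counts, in % on a log axis, taken by the summed genes of 5 marker lists in each of the 10 libraries, with P5 CD11c+ replicate 2 as an open circle. Neutrophil genes reach 12.98% to 17.86% in the 9-month CD11c- libraries, and border-associated macrophage genes reach 1.704% to 2.152% in the P5 CD11c+ libraries.

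The 4 apolipoprotein genes are neighbours. In the deposited coordinates, Apoe (ENSMUSG00000002985, chr7:19696109-19699188), Apoc1 (ENSMUSG00000040564, chr7:19689481-19692660), Apoc4 (ENSMUSG00000074336, chr7:19678083-19681479) and Apoc2 (ENSMUSG00000002992, chr7:19671579-19677941) lay on the minus strand within 27610 bases, and 141 bases separated Apoc4 from Apoc2. In the same coordinates Lpl (ENSMUSG00000015568) spanned chr8:68880491-68907448, Pltp (ENSMUSG00000017754) chr2:164839518-164857711, Abca1 (ENSMUSG00000015243) chr4:53030787-53159895, Abcg1 (ENSMUSG00000024030) chr17:31057698-31115777, Soat1 (ENSMUSG00000026600) chr1:156424525-156474331 and Nr1h3 (ENSMUSG00000002108) chr2:91184061-91202834. The genome build is not given in the sources used here, and 9 of the 10 spans were those of the GENCODE M21 annotation of GRCm38, all but that of Abcg1. Of the exon bases of Apoc2, 79.5% are shared with the predicted gene Gm44805 on the same strand. Of those of Pltp, 19.3% are shared with Ctsa on the opposite strand. Reads of such stretches cannot be assigned with certainty, since strand setting and overlap handling are not given in the sources used here.

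The RefSeq promoter table (GRCm38.p6) held 10 windows for 7 members, each from 250 bases before to 50 after a transcript start. The 250 bases before the start are shown for Apoe, Abca1 and Pltp, members that rose together in the 9-month CD11c+ libraries under the main scaling. All run 5′ to 3′ on the gene's strand, here the minus strand, and capitals mark the motif matches named after them.

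Apoe, chr7:19699189-19699438: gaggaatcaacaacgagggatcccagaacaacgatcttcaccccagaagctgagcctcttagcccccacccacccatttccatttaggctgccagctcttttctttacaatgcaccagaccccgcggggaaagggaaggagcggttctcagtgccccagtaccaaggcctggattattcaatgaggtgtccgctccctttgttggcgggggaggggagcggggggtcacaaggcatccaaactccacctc

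Abca1, chr4:53159896-53160145: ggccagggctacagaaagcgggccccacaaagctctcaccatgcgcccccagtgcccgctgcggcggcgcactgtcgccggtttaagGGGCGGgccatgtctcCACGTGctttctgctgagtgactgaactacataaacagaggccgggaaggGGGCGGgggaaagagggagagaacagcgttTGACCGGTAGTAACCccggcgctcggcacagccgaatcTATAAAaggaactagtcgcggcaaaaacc

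Pltp, chr2:164857709-164857958: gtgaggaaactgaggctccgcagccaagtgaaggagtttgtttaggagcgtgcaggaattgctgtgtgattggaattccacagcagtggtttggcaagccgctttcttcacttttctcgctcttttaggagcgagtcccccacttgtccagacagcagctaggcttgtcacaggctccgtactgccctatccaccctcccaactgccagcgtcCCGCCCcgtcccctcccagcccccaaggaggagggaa

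Liver X receptors with their partner RXR bind pairs of half-sites with 4 bases between them. The motif GGTTNNNNNNGGTCA, a degenerate form of that pair which was picked because the Abca1 promoter is known to hold one, matched Abca1 from position -67, counted back from the transcript start, on the strand opposite to the gene. On either strand it matched 0.24% of all 32851 windows. The exact pair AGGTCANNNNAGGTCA, which contains the half-site AGGTCA at both ends, was in 0.0152% of windows and in no window of the 7 members. The single half-site AGGTCA was in 16.3% of windows, and among members in those of Apoc2 and Apoc4. Abca1 also held CACGTG at -147, GGGCGG at -163 and -97 and TATAAA at -29, which 7.15%, 35.7% and 13.6% of all windows hold. Pltp held GGGCGG at -37 on the opposite strand, and TATAAA at 37, after the start and outside the bases shown. The Apoe window shown held none of the 7 motifs searched, which were these 5, the exact pair and the PU.1 core GAGGAAGT (3.2% of windows, no member). It is 1 of 3 Apoe windows, and another of them held TATAAA at -96 and, on the opposite strand, at -100. A match describes letters and not a bound site.

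Apoe dominated the set at every age and in both subsets. Per length, as transcripts per 1000000 (TPM), it averaged 17614 ± 10255 (SD, n = 3) in P5 CD11c+, 5610 ± 3397 (n = 3) in P5 CD11c-, 11725 ± 1209 (n = 2) in 9-month CD11c+ and 1471 ± 319.4 (n = 2) in 9-month CD11c- libraries. The next gene in those groups was Abca1 at 274.3 and 165.3 TPM at P5, and Abcg1 at 100.5 and 24.55 TPM at 9 months. By CPM, which are not scaled to length, Apoe was the most abundant of all genes in 2 of the 3 P5 CD11c+ libraries and ranked 6 in replicate 2. It ranked 4 to 12 in P5 CD11c-, 6 and 7 in 9-month CD11c+ and 53 and 61 in 9-month CD11c- libraries. All 10 members together took 1.248% to 1.955% of counts in P5 CD11c+ libraries, 0.5017% to 0.9721% in P5 CD11c-, 0.9443% to 1.065% in 9-month CD11c+ and 0.1846% to 0.2199% in 9-month CD11c-. Between 70.21% and 94.2% of that was Apoe.

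The order below Apoe differed between the groups. At P5 the TPM order was Abca1, Lpl and Abcg1, with Lpl at 257 TPM in CD11c+ and 102 TPM in CD11c- libraries. In the 9-month CD11c+ libraries Abcg1 was followed by Pltp (82.55 TPM), Abca1 (61.9 TPM), Soat1 (28.97 TPM) and Lpl (11.47 TPM). In the 9-month CD11c- libraries it was followed by Soat1 (14.92 TPM), Abca1 (11.27 TPM) and Pltp (10.75 TPM). Nr1h3, Apoc2 and Apoc4 were the lowest 3 of the 10 in all 4 groups, at no more than 5.987 TPM. With lengths but TMM-scaled totals, only Abca1 and Lpl changed places, in P5 CD11c+.

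**Figure D2:**
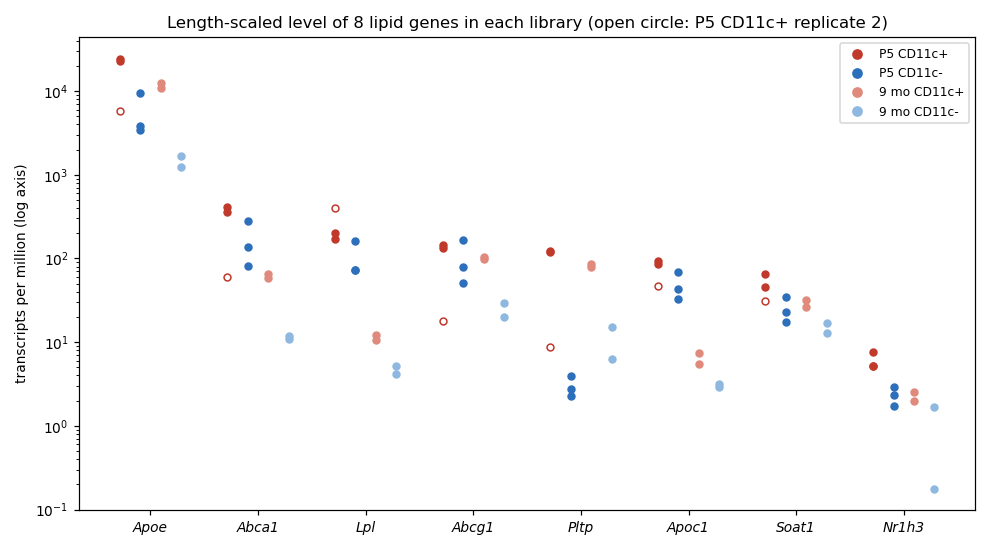
Level of 8 members per length, in TPM on a log axis, in each of the 10 libraries, coloured by group, with P5 CD11c+ replicate 2 as an open circle. Apoe lies above all other members in every library, and Pltp lies between 2.253 and 3.982 in the P5 CD11c- libraries against 120.9 and 122.4 in 2 of the P5 CD11c+ libraries.

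Genes that differed between the subsets were sought within each age by edgeR's quasi-likelihood test, with p-values adjusted over all genes tested and a threshold of 0.05. At P5, 0 of the 8 members tested passed, beside 46 of 15410 genes (0.299%), and Apoc2 and Apoc4 were too low to be tested. In simulated data this P5 test recovered 1.49% of 4-fold changes, so a member that did not pass may still differ. At an unadjusted p under 0.05, 3 members (Apoe, Pltp and Soat1, all higher) passed, beside 668 genes higher and 409 lower. The members' median log2 fold change of CD11c+ over CD11c- was 0.78, beside 0.06 for all genes. Without CD11c+ replicate 2, Apoe and Pltp rose, with 9.48% of genes called in either direction and 5.06% as higher. DESeq2 called the same pair as higher with all 6 libraries (2.54% of genes called higher), as did limma-voom with sample quality weights (8.9%). The all-10-library fit called Pltp alone (0.532%), and the homeostatic scaling without replicate 2, described with the next comparison, called Apoe, Pltp and Abca1 (8.14%).

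At 9 months 4 of the 8 members tested rose in CD11c+ libraries, namely Apoe, Pltp, Abca1 and Abcg1, and none fell. Among all 15740 genes tested, 33.0% were called (14.8% higher and 18.2% lower), and the members' median was 0.76 beside 0.02 for all genes. In these bulk libraries a lower share of microglia in a sorted subset and less RNA per cell cannot be told apart. The 9-month result depended on the scaling. When libraries were scaled to the 20 homeostatic genes, the median of all genes moved to -1.37, Apoe alone was called higher (0.47% of genes), and Lpl and Soat1 were called lower (62.2% of genes). Calls over all genes split into 74 higher and 9792 lower under that scaling, 4005 higher and 2062 lower with library totals only, and 2333 higher and 2869 lower in the main test. In a fit of all 10 libraries, which shares 1 estimate of the spread between ages, Apoe alone passed (1.43% of genes called higher).

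Whether the subset difference itself differed between ages was tested as the P5 log2 fold change minus the 9-month one. Of 9 members tested 0 passed, beside 364 of 19555 genes (1.86%), and 0 of the 9 had an unadjusted p under 0.05, beside 1833 genes higher and 1318 lower. In simulated data this test recovered 0% of 4-fold changes. DESeq2 called 0 members as well, and limma-voom with quality weights called Pltp as larger at P5 (10.5% of genes were) and Abcg1 as smaller (9.57%). Without P5 CD11c+ replicate 2, Pltp and Abcg1 passed in opposite directions (19.1% of genes called). On the homeostatic scaling 4 passed as larger at P5, namely Pltp, Lpl, Soat1 and Apoc1 (36.0% of genes did), and Apoe joined them without that library (54.6%). A kit effect that acts on 1 subset would enter this difference.

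**Figure D3:**
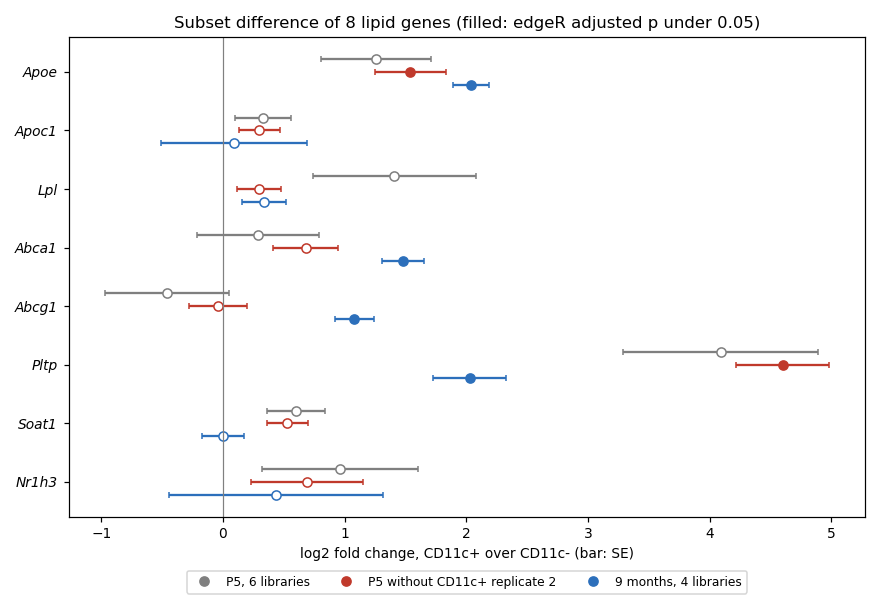
Log2 fold change of CD11c+ over CD11c- with its standard error (SE) for the 8 members tested, at P5 with all 6 libraries, at P5 without CD11c+ replicate 2 and at 9 months, with filled points for an edgeR adjusted p under 0.05. Apoe and Pltp are filled at 9 months and at P5 without replicate 2, and Abca1 and Abcg1 are filled at 9 months alone.

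Apoe, the main lipid carrier of the brain, reached 16967, 8765 and 16742 CPM in P5 CD11c+ replicates 1, 2 and 3 and 7608, 4346 and 3944 CPM in P5 CD11c-. All 3 CD11c+ libraries lay above all 3 CD11c- libraries, with the lowest CD11c+ value in the shallow replicate 2. The log2 fold change was 1.26 ± 0.45 (SE; edgeR adjusted p = 0.572), and without replicate 2 it rose by 1.54 ± 0.29 (edgeR adjusted p = 0.023). With replicate numbers also set as a block, added after seeing the data, it was 1.48 ± 0.53 (edgeR adjusted p = 0.149). At 9 months the libraries had 10036 and 8799 CPM in CD11c+ and 1930 and 1615 CPM in CD11c-, again without overlap. There Apoe rose by 2.04 ± 0.15 (edgeR adjusted p = 0.000148), and by 0.64 ± 0.15 on the homeostatic scaling (edgeR adjusted p = 0.00743). The difference between ages was -0.94 ± 0.67 (edgeR adjusted p = 0.537).

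Set against the summed homeostatic genes of the same library, Apoe counts came to 58.44% to 76.52% of that sum in P5 CD11c+ and 20.36% to 21.84% in P5 CD11c-. At 9 months they came to 13.68% to 14.23% in CD11c+ and 8.717% to 9.2% in CD11c- libraries. By this ratio, too, CD11c+ lay above CD11c- at both ages without overlap. The homeostatic genes differed between the subsets themselves, which enters the ratio. In the main test their median log2 fold change was -0.86 at P5 and 1.31 at 9 months. On the homeostatic scaling the difference between ages of Apoe turned to 1.11 ± 0.55 (edgeR adjusted p = 0.136). It was 1.23 ± 0.36 with P5 CD11c+ replicate 2 also left out (edgeR adjusted p = 0.0136). Neither the sign nor the call of Apoe's age difference held across scalings.

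Apoc1, which restrains lipoprotein uptake and lipase action, was at 20.88, 24.81 and 23.73 CPM in P5 CD11c+ and 18.93, 16.74 and 13.03 CPM in P5 CD11c- libraries. The groups did not overlap, and the fold change was small at 0.33 ± 0.23 (edgeR adjusted p = 0.801). At 9 months Apoc1 had 1.53 and 2.094 CPM in CD11c+ and 1.16 and 1.447 CPM in CD11c-, from 28 to 49 counts a library. The ratio of summed counts was 1.39 with an exact 95% interval of 0.988 to 1.96, and the fold change 0.09 ± 0.60 (edgeR adjusted p = 0.93). This interval and those for Apoc2 and Apoc4 cover counting error only, since reads copied by amplification are not independent molecules. These ratios are scaled by library totals only, unlike the main fold changes, and would shift under another scaling. At 9 months the median log2 fold change of all genes was 0.396 with library totals, 0.022 in the main test and -1.369 on the homeostatic scaling. Apoe, 3448 bases away, ranked 61 or higher among all genes in every library, and Apoc1 ranked 6486 or lower.

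Apoc2, the activator of lipoprotein lipase, and Apoc4 were near the limit of detection. Apoc2 had 2, 7 and 0 counts in P5 CD11c+ and 1, 3 and 1 in P5 CD11c- libraries, and 8 and 1 in 9-month CD11c+ against 0 and 1 in 9-month CD11c-. A count of 0 allows up to 0.16 CPM in P5 CD11c+ replicate 3 and 0.124 CPM in 9-month CD11c- replicate 1. The ratio of CD11c+ to CD11c- was 1.99 at P5 (exact 95% interval 0.598 to 7.55) and 8.52 at 9 months (1.18 to 373.0). Of the Apoc2 counts, 8 of the 9 CD11c+ counts at 9 months came from 1 library.

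Apoc4 had 5, 15 and 9 counts in P5 CD11c+ and 1, 4 and 3 in P5 CD11c- libraries. The ratio was 4.0 (1.78 to 10.1), and without replicate 2, which held 15 of the 29 CD11c+ counts, 2.08 (0.815 to 5.72). At 9 months it had 9 and 30 counts in CD11c+ and 0 and 9 in CD11c-, a ratio of 4.1 (1.95 to 9.63). In CPM those 9-month libraries overlapped, at 0.3532 and 1.282 against 0 and 0.4068.

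Lpl, which releases fatty acids from triglyceride-rich particles, shows how far 1 library can carry a mean. It had 681.1, 2957 and 621.7 CPM in P5 CD11c+ and 628.5, 400.7 and 408.4 CPM in P5 CD11c- libraries. Replicate 2 alone lay far above the other P5 libraries, as it did for the markers of neurons and astrocytes, whose part in this value was not tested. The lowest CD11c+ library lay below the highest CD11c- library. The fold change was 1.41 ± 0.67 (edgeR adjusted p = 0.761) and 0.30 ± 0.18 without replicate 2 (edgeR adjusted p = 0.338). At 9 months Lpl was at 41.95 and 48.46 CPM in CD11c+ and 28.75 and 26.22 CPM in CD11c-. These did not overlap, yet the fold change of 0.34 ± 0.18 did not pass (edgeR adjusted p = 0.199). It was called with library totals only, at 0.72 (edgeR adjusted p = 0.0303), and called lower on the homeostatic scaling, at -1.05 ± 0.21 (edgeR adjusted p = 0.00389).

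Pltp, which moves phospholipids between lipoproteins, had the largest fold change of the 8 members tested at P5. It was at 101.1, 15.65 and 108 CPM in CD11c+ and 2.156, 5.383 and 3.784 CPM in CD11c- libraries. Replicate 2 was the lowest of its group and still above all CD11c- libraries. The fold change was 4.09 ± 0.80 (edgeR adjusted p = 0.145), and without replicate 2 Pltp rose by 4.60 ± 0.38, a 24.2-fold difference (edgeR adjusted p = 0.00109). The all-10-library fit also called it, at 4.11 ± 0.75 (edgeR adjusted p = 0.043).

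In the 9-month CD11c+ libraries Pltp had 82.45 and 76.49 CPM, against 20.67 and 9.854 CPM in CD11c-. It rose by 2.03 ± 0.30, 4.08-fold (edgeR adjusted p = 0.003), which became 0.63 ± 0.30 on the homeostatic scaling (edgeR adjusted p = 0.101) and 2.18 ± 0.83 in the all-10-library fit (edgeR adjusted p = 0.17). The P5 fold change exceeded the 9-month one by 1.93 ± 1.05 (edgeR adjusted p = 0.41), and by 2.44 ± 0.51 without P5 CD11c+ replicate 2 (edgeR adjusted p = 0.00845). Markers of border-associated macrophages moved in the same direction. At P5, 8 of the 16 rose with all libraries (0.299% of all genes were called) and 15 without replicate 2 (5.06% of all genes rose). The median log2 fold change of the 16 was 5.19 with all libraries, beside 0.06 for all genes. At 9 months 15 rose and F13a1 fell, where 14.8% of all genes rose and 18.2% fell. The median of the 16 was 2.80, beside 0.02 for all genes. Among the most abundant, Stab1 was at 2211 to 6805 CPM in P5 CD11c+ and 440.2 to 1066 CPM in P5 CD11c- libraries, and Maf at 1608 to 7488 and 700.4 to 1411 CPM. At P5 neither was among the 8 called with all libraries, and without replicate 2 Stab1 was called and Maf was not. The part of these 16 markers in the Pltp and Apoe results was not tested.

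Abca1, the exporter that lipidates apolipoprotein E, had 1375, 437.9 and 1274 CPM in P5 CD11c+ and 1080, 747.8 and 443.9 CPM in P5 CD11c- libraries. Replicate 2 lay below every CD11c- library, and the others lay above them all. The fold change was 0.29 ± 0.50 (edgeR adjusted p = 0.902), and 0.68 ± 0.27 without that library (edgeR adjusted p = 0.155). At 9 months it had 225.1 and 257.3 CPM in CD11c+ and 64.5 and 68.17 CPM in CD11c-. There Abca1 rose by 1.48 ± 0.17, 2.79-fold (edgeR adjusted p = 0.000949), which became 0.09 ± 0.19 on the homeostatic scaling (edgeR adjusted p = 0.702) and was 1.60 ± 0.62 in the all-10-library fit (edgeR adjusted p = 0.178).

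Abcg1, its partner in export, did not separate the subsets at P5. The libraries had 193.9, 51.53 and 185.1 CPM in CD11c+ and 254.1, 171.1 and 109.7 CPM in CD11c-. The ranges overlapped in part, with replicate 2 of CD11c+ below every CD11c- library and CD11c- replicate 1 above every CD11c+ library. The fold change was -0.46 ± 0.51 (edgeR adjusted p = 0.84), and -0.04 ± 0.24 without replicate 2 (edgeR adjusted p = 0.933). At 9 months Abcg1 had 148.8 and 158.4 CPM in CD11c+ and 63.13 and 49.14 CPM in CD11c-. It rose by 1.08 ± 0.16, 2.12-fold (edgeR adjusted p = 0.00276), turned to -0.31 ± 0.18 on the homeostatic scaling (edgeR adjusted p = 0.177) and was 1.21 ± 0.62 in the all-10-library fit (edgeR adjusted p = 0.317). The difference between ages was -1.69 ± 0.80 (edgeR adjusted p = 0.337) and -1.24 ± 0.33 without P5 CD11c+ replicate 2 (edgeR adjusted p = 0.0269). It turned to 0.29 ± 0.53 on the homeostatic scaling (edgeR adjusted p = 0.685). For Abca1 the same difference was -1.32 ± 0.78 (edgeR adjusted p = 0.449), and it turned to 0.65 ± 0.54 on the homeostatic scaling (edgeR adjusted p = 0.342) and to 0.92 ± 0.37 with replicate 2 also left out (edgeR adjusted p = 0.0528).

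Soat1, which turns free cholesterol into its storage ester, differed by less. It had 206.8, 214.5 and 154.4 CPM in P5 CD11c+ and 127.3, 116.9 and 90.82 CPM in P5 CD11c- libraries, without overlap. The fold change was 0.60 ± 0.24 (edgeR adjusted p = 0.685) and 0.53 ± 0.17 without replicate 2 (edgeR adjusted p = 0.0956). At 9 months it had 116.1 and 97 CPM in CD11c+ and 88.77 and 76.08 CPM in CD11c-, and the fitted difference was 0.00 ± 0.17 (edgeR adjusted p = 0.997). On the homeostatic scaling Soat1 was lower in CD11c+, at -1.40 ± 0.17 (edgeR adjusted p = 0.000405).

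Nr1h3, the receptor that senses oxysterols, was weakly detected. It had 6.258, 9.162 and 4.49 CPM in P5 CD11c+ and 1.617, 3.908 and 3.111 CPM in P5 CD11c- libraries, from 24 to 95 counts each. The groups did not overlap, and the fold change was 0.96 ± 0.64 (edgeR adjusted p = 0.8). At 9 months it had 1.844 and 2.436 CPM in CD11c+ and 2.237 and 0.2712 CPM in CD11c-. The last of these rests on 6 counts, the groups overlap, and the fold change of 0.44 ± 0.88 did not pass (edgeR adjusted p = 0.736). Without CD11c- replicate 1 it became 2.49 (edgeR adjusted p = 0.0402), with the 6-count library alone left in that group.

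Counted by libraries alone, 6 of the 10 members (Apoe, Apoc1, Apoc4, Pltp, Soat1 and Nr1h3) had all P5 CD11c+ libraries above all P5 CD11c- libraries in CPM, where 11.7% of the genes tested did. Without CD11c+ replicate 2 there were 7, with Abca1 added, where 28.8% of genes did. Apoc2 and Apoc4 are among the 10 members but were too low to be among the genes tested. At 9 months 7 of 10 did (Apoe, Apoc1, Lpl, Abca1, Abcg1, Pltp and Soat1), where 49.4% of the genes tested did. No member lay wholly lower at P5 (3.64% of genes did, and 15.9% without replicate 2) or at 9 months (23.7%). Apoe, Apoc1, Pltp and Soat1 were in both sets. Plain CPM of the 9-month CD11c- libraries also carry the share that the neutrophil genes take. Those of the P5 CD11c- libraries carry the 7.145% to 27.97% that the mitochondrially encoded genes take, against 0.7706% to 2.79% in P5 CD11c+.

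**Figure D4:**
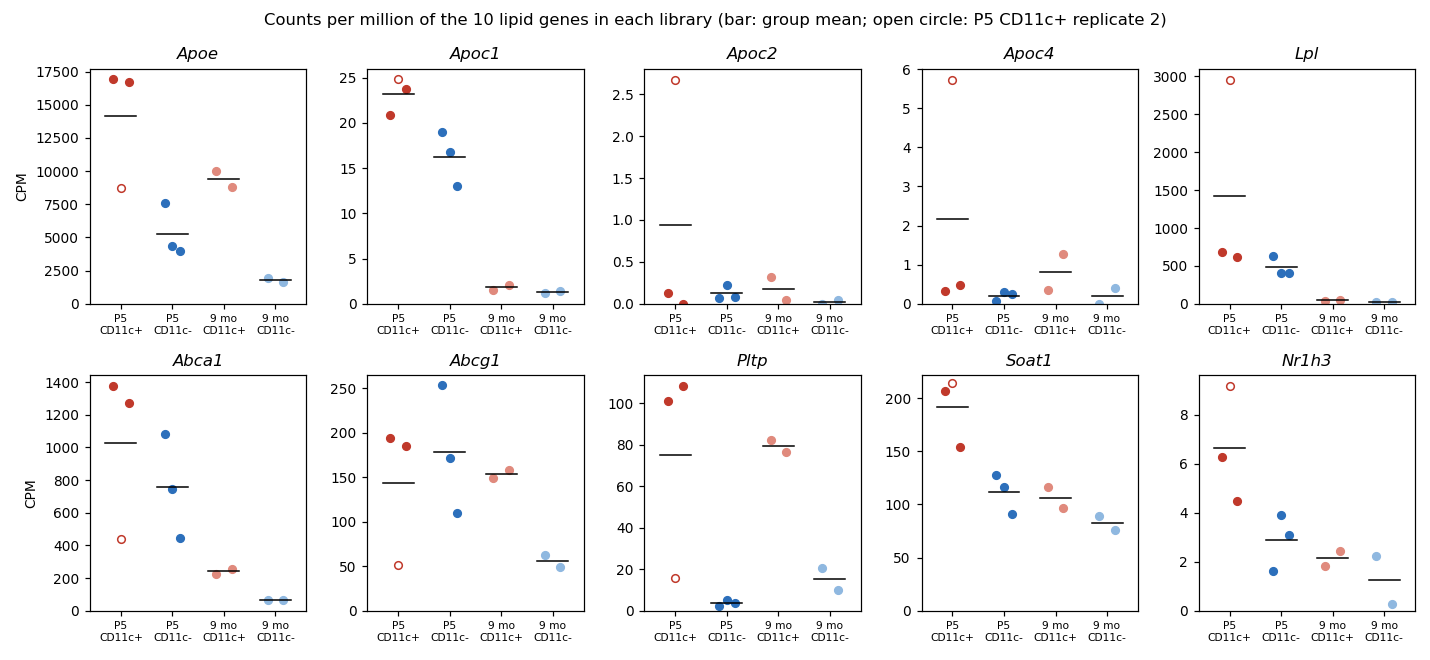
CPM of each of the 10 members in every library, by group, with the group mean as a bar and P5 CD11c+ replicate 2 as an open circle; each panel has its own linear axis from 0. The open circle lies at 2957 for Lpl and at 15.65 for Pltp, far from the other 2 libraries of its group.

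**Figure D5:**
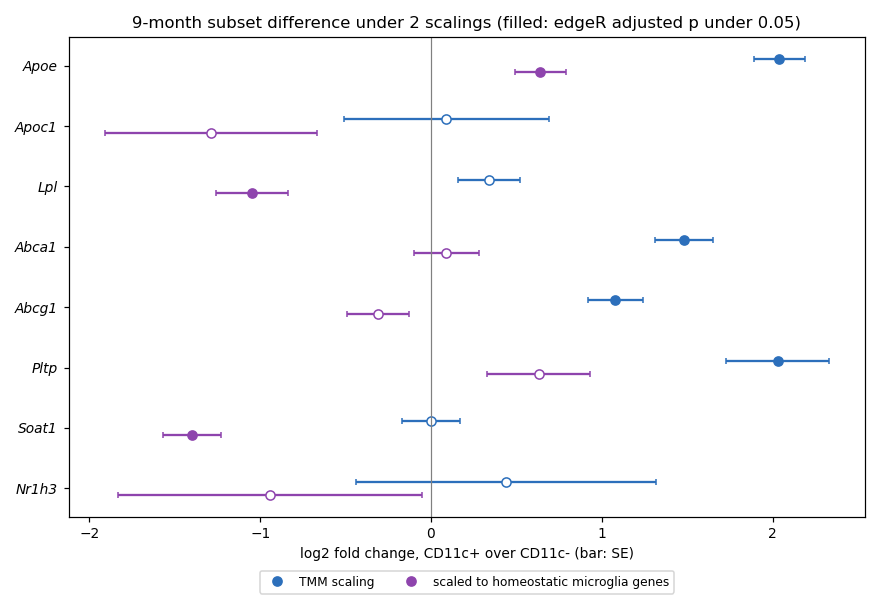
Log2 fold change of CD11c+ over CD11c- at 9 months with its SE for 8 members, scaled by trimmed means (TMM) or to the 20 homeostatic genes, with filled points for an edgeR adjusted p under 0.05. Apoe is above 0 and filled under both scalings, and Lpl and Soat1 are filled and below 0 on the homeostatic scaling.

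Across groups, most members shared their extremes but not their whole order. In mean CPM, 8 of the 10 were lowest in 9-month CD11c- libraries and highest in P5 CD11c+ libraries, all but Abcg1 and Pltp. Without P5 CD11c+ replicate 2 there were 7, since Apoc2 and Apoc4 no longer did so and Abcg1 did. With all libraries the lowest mean of Apoc4 was 0.2034 CPM, beside 0.2049 CPM in P5 CD11c-. The share of all genes with these extremes was not counted, so they are not a result about the members. Abcg1 was at 143.5 ± 79.75 CPM in P5 CD11c+, 178.3 ± 72.48 in P5 CD11c- (SD, n = 3 each) and 153.6 ± 6.796 CPM in 9-month CD11c+ libraries (SD, n = 2), which overlapped, and at 56.13 ± 9.896 CPM in 9-month CD11c- (SD, n = 2). For Apoc1, Lpl and Abca1 every P5 library lay above every 9-month library. The share of all genes that did so was not counted, and age and library kit cannot be told apart. This, too, is therefore not a result about the members. In group means Pltp followed the subset instead, with the 2 CD11c+ groups at 74.93 ± 51.45 and 79.47 ± 4.209 CPM and the 2 CD11c- groups at 3.774 ± 1.613 (P5) and 15.26 ± 7.648 CPM (9 months). By library it did so only in part. P5 CD11c+ replicate 2, at 15.65 CPM, lay below 9-month CD11c- replicate 1 at 20.67 CPM. Both 9-month CD11c- libraries lay above all P5 CD11c- libraries.

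The genes that work around these members were taken from 5 lists. At P5, 0 of the 70 listed genes tested passed in edgeR with all libraries, beside 0.299% of all genes. An unadjusted p under 0.05 went with 6 higher and 1 lower, beside 668 and 409 of the 15410 genes tested. DESeq2 called Cd36, Smpd1 and Msr1 as higher and Mgll as lower, beside 2.54% and 1.05% of all genes. The list of sterol sensing and LXR targets had 3 of 18 genes rise without P5 CD11c+ replicate 2, where 5.06% of all genes did. The oxysterol-making enzyme gene Cyp27a1 rose by 1.62 ± 0.13 (edgeR adjusted p = 0.000918). The LXR partner Rxra rose by 0.89 ± 0.15 (edgeR adjusted p = 0.017) and the sterol sensor Srebf2 by 0.92 ± 0.17 (edgeR adjusted p = 0.0231). At 9 months 6 of its 20 rose and 2 fell, where 14.8% of all genes rose and 18.2% fell. The median of the 20 was 0.50, beside 0.02 for all genes. Cyp27a1 rose by 1.06 ± 0.19 (edgeR adjusted p = 0.00691), Lpcat3, an LXR target that remodels phospholipids, by 1.01 ± 0.19 (edgeR adjusted p = 0.00736) and Rxrg by 2.14 ± 0.38 (edgeR adjusted p = 0.00624). Smpdl3a, also an LXR target, fell by 1.97 ± 0.15 (edgeR adjusted p = 0.000152). On the homeostatic scaling 0 of the 20 rose and 10 fell, where 62.2% of all genes fell. Their median there was -0.88, beside -1.37 for all genes.

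Among lipoprotein and lipid receptors, 2 of 13 rose at P5 without CD11c+ replicate 2, where 5.06% of all genes did. The 2 were the scavenger receptors Cd36, by 3.35 ± 0.68 (edgeR adjusted p = 0.0294), and Msr1, by 2.42 ± 0.39 (edgeR adjusted p = 0.0149). With all libraries Cd36 was at 383.3 ± 142.6 against 38 ± 25.3 CPM (SD, n = 3 each). At 9 months 5 of 13 rose and 4 fell, where 14.8% of all genes rose and 18.2% fell. Cd36 rose by 2.09 ± 0.21 (edgeR adjusted p = 0.000564) and Lrp1, an uptake receptor for apolipoprotein E particles, by 1.21 ± 0.14 (edgeR adjusted p = 0.0012). Sorl1 fell by 2.69 ± 0.23 (edgeR adjusted p = 0.000267) and the oxidized lipoprotein receptor Olr1 fell by 3.68 ± 0.37 (edgeR adjusted p = 0.00061). On the homeostatic scaling Cd36 alone of the 13 rose and 10 fell, where 62.2% of all genes fell. Their median there was -1.45, beside -1.37 for all genes.

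Under the main scaling, genes of lysosomal lipid breakdown and sterol egress were called higher in CD11c+ libraries at 9 months, and none was called lower. At P5 without CD11c+ replicate 2 the median of the 14 was 0.45, which was 0.16 with all libraries (0.06 for all genes). In that fit without replicate 2, 3 of the 14 rose, where 5.06% of all genes did. They were Lipa, the lysosomal acid lipase, by 0.99 ± 0.22 (edgeR adjusted p = 0.0346), the cholesteryl ester hydrolase Nceh1 by 1.29 ± 0.22 (edgeR adjusted p = 0.0179) and the sphingomyelinase Smpd1 by 0.83 ± 0.16 (edgeR adjusted p = 0.0276). At 9 months 10 of 14 rose and 0 fell, where 14.8% of all genes rose and 18.2% fell. The median of the 14 was 0.83. Among them the phospholipase Pla2g15 rose by 1.76 ± 0.15 (edgeR adjusted p = 0.000313), the protease Ctsd by 1.5 ± 0.15 (edgeR adjusted p = 0.000596), progranulin (Grn) by 1.26 ± 0.15 (edgeR adjusted p = 0.00113) and the sterol carrier Stard3 by 1.11 ± 0.17 (edgeR adjusted p = 0.00365). On the homeostatic scaling 0 rose and 7 fell, where 62.2% of all genes fell. The median of the 14 there was -0.56, beside -1.37 for all genes.

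Genes of lipid droplets and esterification went the other way at 9 months, where 9 of 15 fell and 1 rose, with a median of -1.35. Of all genes, 18.2% fell and 14.8% rose. The lipase inhibitor G0s2 fell by 6.44 ± 0.36, from 351.6 ± 3.41 CPM in CD11c- to 5.246 ± 2.403 in CD11c+ (edgeR adjusted p = 5.25e-05). Of the triglyceride-making enzymes, Dgat1 fell by 3.36 ± 0.19 (edgeR adjusted p = 5.25e-05) and Dgat2 fell by 3.65 ± 0.20 (edgeR adjusted p = 5.27e-05), and the fatty acid binder Fabp5 fell by 2.99 ± 0.23 (edgeR adjusted p = 0.00017). Scaled to the homeostatic genes, 0 of the 15 rose and 12 fell, where 62.2% of all genes fell. Their median there was -2.76, beside -1.37 for all genes. The same CD11c- libraries hold the neutrophil and monocyte RNA given above, and its part in these decreases was not tested. At P5 without CD11c+ replicate 2 Mgll fell by 1.08 ± 0.13 (edgeR adjusted p = 0.00591), Dgat1 fell by 0.78 ± 0.17 (edgeR adjusted p = 0.0351) and Acsl3 rose by 0.81 ± 0.18 (edgeR adjusted p = 0.0381). With all 10 libraries the age difference passed for G0s2, at 5.32 ± 0.88 (edgeR adjusted p = 0.0217), and Plin3, at 2.90 ± 0.60 (edgeR adjusted p = 0.0441). These were the only 2 of the 79 listed pathway genes tested that edgeR called, where 1.86% of all genes were. Without P5 CD11c+ replicate 2 edgeR called 17 of 78 as larger at P5 (10.3% of all genes were) and 9 as smaller (8.76%). With all libraries DESeq2 called 13 of 79 as larger (8.42% of all genes) and 3 as smaller (3.77%).

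Of the other apolipoproteins, carriers and transporters, 3 of 13 rose at 9 months and 3 fell, where 14.8% of all genes rose and 18.2% fell. The lipid transporter Abca9 rose by 1.90 ± 0.20 (edgeR adjusted p = 0.000735) and Lmf1, which matures lipoprotein lipase, by 1.12 ± 0.19 (edgeR adjusted p = 0.00514). Tspo, of the outer mitochondrial membrane, fell by 2.45 ± 0.16 (edgeR adjusted p = 9.23e-05) and the endothelial lipase gene Lipg fell by 5.44 ± 0.79, from 3.676 ± 1.363 to 0.1051 ± 0.09312 CPM (edgeR adjusted p = 0.00279). Scaled to the homeostatic genes, 0 of the 13 rose and 6 fell, where 62.2% of all genes fell. Their median there was -1.24, beside -1.37 for all genes. At P5 without CD11c+ replicate 2, Abca3 alone of 12 rose, by 0.94 ± 0.18 (edgeR adjusted p = 0.0274), where 5.06% of all genes did.

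Likeness to Apoe was measured over the 10 libraries as the root mean square difference of log2 CPM after each gene's mean within each age was taken off, among 4932 well-expressed genes. The 5 closest were Snx8 (0.14), Tln2 (0.189), Trf (0.214), Rubcn (0.243) and Prune2 (0.253), beside a median of 0.93 over all genes compared. Snx8, the closest, was at 145.2, 48.9, 53.67 and 10.35 CPM in the order P5 CD11c+, P5 CD11c-, 9-month CD11c+ and 9-month CD11c-. Without P5 CD11c+ replicate 2 the 5 were Snx8, Slc9a9, Fcgrt, Afap1l1 and Tln2, so 2 were shared. Of the members, Abca1 was closest to Apoe, at rank 101 (0.507), followed by Soat1 at rank 1175 (0.78), Abcg1 at rank 1607 (0.831) and Lpl at rank 2899 (0.981). Without P5 CD11c+ replicate 2 Abca1 was still the closest member, at rank 75 (0.404), but the order after it became Abcg1 at rank 660 (0.667), Lpl at rank 1102 (0.74) and Soat1 at rank 1589 (0.803). The other members were below the level set for this comparison. The points share libraries and their depths, and the likeness is a description with no test.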

How the data were processed

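The authors deposited raw counts of reads per gene, as whole numbers, with gene coordinates and lengths, per the file headers. Per the submitters' processing notes the tools were Trimmomatic 0.36, STAR 2.5.2b and Subread 1.5.2, while build, strand setting and multimapping are not given in the sources used here. Symbols for 48970 of 49315 identifiers came from GENCODE M21, where 91.4% had the same span. Replicates differed by 28.29 to 243.9 chi-square per degree of freedom, so none was counted as a duplicate. Of the per-sample columns, 0 went unused.

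From the counts, CPM and TPM (counts over exon length, with a fixed sum per library) were computed. Tests used edgeR 4.0.16 in R 4.3.3 (filterByExpr, trimmed means of M-values scaling, quasi-likelihood F-test, Benjamini-Hochberg over all genes tested), on the 6 P5 libraries, the 4 9-month libraries, and all 10 for the difference between ages. Alternatives were DESeq2 1.42.0, limma 3.58.1 voom with and without quality weights, other scalings, no filter, a replicate block, each library left out and 1 fit of all libraries. Scripts were tested on simulated data with known changes of 2-fold, 4-fold and 32-fold. The main test recovered 0%, 1.49% and 78.8% of these at P5 and 26.9%, 77.6% and 97% at 9 months. For the age difference it recovered 0%, 0% and 69.7%. A member that did not pass at P5 or for the age difference is therefore not shown to be unchanged. Ratios of counts under 100, scaled by library totals, carry exact 95% intervals, and a count of 0 allows 3 counts.

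The members and lists were chosen with earlier results of these data known. Named were all members, the 5 genes most like Apoe whose average log2 CPM reached 5, and up to 2 of the highest markers of each cell type. The genes named from the 5 lists were among the 4 with the smallest p of their list in a comparison. Each of them passed in edgeR or DESeq2. Those of the 4 that did not pass, and some that did, are not named. Of 92 listed pathway genes 1 was not matched.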

Additional observations from a re-analysis of the deposited data

How the results depend on the processing

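Of the members' fold changes under other settings with no library left out, 189 kept direction and side of the threshold, 21 passed anew, 5 no longer passed and 25 changed sign (2 of these also passed anew and 1 no longer passed); with 1 library left out the numbers were 148, 5, 0 and 16. At P5, where the main test called 0 members, DESeq2 and limma-voom with quality weights each called 2, the fit of all 10 libraries 1, the homeostatic scaling without CD11c+ replicate 2 called 3 (with Abca1 at 1.02, edgeR adjusted p = 0.0473), and leaving out single libraries 0 to 2. At 9 months the count went from 4 to 1 in the fit of all 10. For the age difference (main 0) it was 2 with quality weights, 4 on the homeostatic scaling, 5 with that scaling and P5 CD11c+ replicate 2 out, and 0 to 2 with single libraries out.

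Sign changes at P5 were those of Abcg1, at 0.03 with quality weights and 0.30 on the homeostatic scaling without replicate 2. At 9 months the homeostatic scaling turned Apoc1 to -1.29, Lpl to -1.05, Abcg1 to -0.31 and Nr1h3 to -0.94, and Soat1 was at 0.37 with library totals, 0.06 with no filter and 0.12 in the fit of all 10. With single libraries out, Apoc1 ranged from -0.14 to 0.42, Soat1 from -0.10 to 0.17 and Nr1h3 from -0.29 to 2.49, which passed without CD11c- replicate 1 (edgeR adjusted p = 0.0402).

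For the age difference, the homeostatic scaling gave Apoe 1.11, Abca1 0.65 and Abcg1 0.29, and with replicate 2 also out 1.23, 0.92 and 0.60. Apoc1 was at -0.12 with no filter, Apoc4 at -1.39 with voom and -2.51 with quality weights, Lpl at -0.04 with quality weights, and Nr1h3 at -0.07 with voom, -0.43 with quality weights and -0.02 with no filter. With single libraries out, Apoc1 ranged from -0.48 to 0.24, Apoc4 from -4.48 to 2.13, Lpl from -0.16 to 1.04 and Nr1h3 from -1.83 to 0.79. The cause was not tested.

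Whether replicate numbers shared by the subsets pair the libraries was not settled. Same-numbered deviations from the group means correlated at 0.523, 0.029 and -0.504 at P5 and 0.048 at 9 months. Such deviations sum to 0 within a group, so with 2 or 3 libraries a group they can neither show nor exclude pairing. With the replicate block, 0 genes were called at P5 (46 without) and 0 for the age difference (364 without), the same 4 members were called at 9 months, and the age differences of Apoc4 and Nr1h3 turned to -0.43 and -0.16. With the block and without P5 CD11c+ replicate 2, a setting added after seeing the data, Pltp alone was called (1 member), Apoe stood at 1.48 (edgeR adjusted p = 0.149) and Abcg1 at 0.04. Over all genes, P5 calls ranged from 0 to 3271 (limma-voom with quality weights) and the 9-month calls from 1158 (all 10 libraries) to 9866 (homeostatic scaling), and those for the age difference from 0 to 10132. Depth limits Apoc2, Apoc4 and Nr1h3.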
